A study of Arabidopsis thaliana with 8 samples.

Results

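Iodine can be built into proteins by replacing hydrogen on the ring of a tyrosine or histidine residue. The genes described here are the 82 of *Arabidopsis thaliana* whose proteins were reported as carrying iodine, 42 from leaves and 40 from roots, with no gene in both organs. The protein lists came from a search of public proteome data of plants other than those on the arrays, so those lists do not rest on the transcript values below. The leaf list was drawn from leaf and chloroplast data and the root list from root data. A protein thus had to be detected in an organ to be listed for it, and the lists are not independent of organ. Of the 82 genes, 33 had a probe set that named them alone, 16 of the leaf table and 17 of the root table, and the other 49 were not measured here. Among these only At1g78850 had a probe set shared with another locus. For the rest the annotation used here linked no probe set. It named no gene for 8794 of 22810 probe sets, so a missing link does not show that the array lacks the gene.

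The leaf proteins belong mainly to the photosynthetic machinery of the chloroplast. The photosystems pass electrons along the thylakoid membrane, the cytochrome b6f complex links them, ATP synthase uses the resulting proton gradient, and Rubisco fixes carbon dioxide. The chloroplast genome encodes the core subunits of these complexes and the nucleus encodes the rest. The root proteins are more mixed, and include class III peroxidases, which are secreted haem enzymes that oxidise many substrates with hydrogen peroxide and act on cell wall polymers, together with other oxidases and with hydrolases and lectins of the kind found in defence. Haem peroxidases can oxidise iodide.

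Transcripts were measured in Col-0 plants about 3 weeks old, grown hydroponically on a base nutrient solution alone (control) or on the same solution with 10 μM KBr, NaI or KI for 48 h. Rosettes (shoot) and roots were hybridised separately, which gave 8 ATH1 arrays, 1 per treatment and organ, each from a pool of 3 plants. KBr served as the control for a halide salt of potassium, and the 2 iodide salts differed in their cation. A probe set is a group of short probes for 1 transcript, summarised here as a MAS5 signal, an intensity on a linear scale that is comparable between arrays but not between probe sets. A signal of 100 was the study's own limit for a well-expressed gene, and it is used here as a floor: where the mean of a group lay under it, the fold is a bound against a signal of 100 ("at least"), and a log2 change fitted to such signals is called a fitted value and is no measure of size.

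Array medians lay between 167.9 and 192.8 and between 58.5% and 61.7% of the 22746 probe sets reached a signal of 100. The arrays of an organ correlated at 0.915 to 0.951 over log2 signals, and those of different organs at 0.644 to 0.671. Of the organ markers checked, SBPASE and PRK, enzymes of the Calvin cycle, were 2 of 7 leaf markers with a probe set of their own and had mean signals of 12824 and 17939 in shoot against 21.6 and 20.7 in root, and EXPA7, an expansin of root hairs, was 1 of 10 root markers and had 9.34 in shoot against 1052 in root. The ratio of the 3′ to the 5′ control probe set of GAPDH, which rises as RNA is degraded or incompletely copied, was 1.51, 1.6, 1.88 and 1.77 on the control, KBr, NaI and KI arrays of shoot and 1.28, 1.38, 1.02 and 1.05 on those of root. It therefore differed between the organs. On both iodide arrays it was lower than on the others in root and higher than on the others in shoot. The same ratio for actin was 9.35, 12.64, 9.46 and 6.41 in shoot and 9.82, 10.12, 7.77 and 7.91 in root, where the organs overlapped and both root iodide arrays were again the lower ones. In addition, rosette and root RNA were extracted by different methods, although the sample descriptions name the same method for all, so organ and extraction cannot be told apart.

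The transcripts of the leaf proteins were mostly far higher in shoot than in root. Between organs, 15 of the 16 measured leaf-table genes were higher in shoot and 1 was higher in root, in a limma fit with treatment as a block that called a probe set at an adjusted p under 0.05 and at least 2-fold. Over all probe sets 15.4% were called higher in shoot and 19.1% higher in root. The median difference (log2 signal, shoot minus root) of the leaf-table genes was 5.71, against -0.13 over all probe sets, or 5.65 with dim organs set at the floor, and each of the 15 was higher in shoot under all 4 treatments. In root, 7 of the 16 had a mean signal under 100. The values are of whole organs, and fewer cells of a type cannot be told apart from less RNA per cell.

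**Figure D1:**
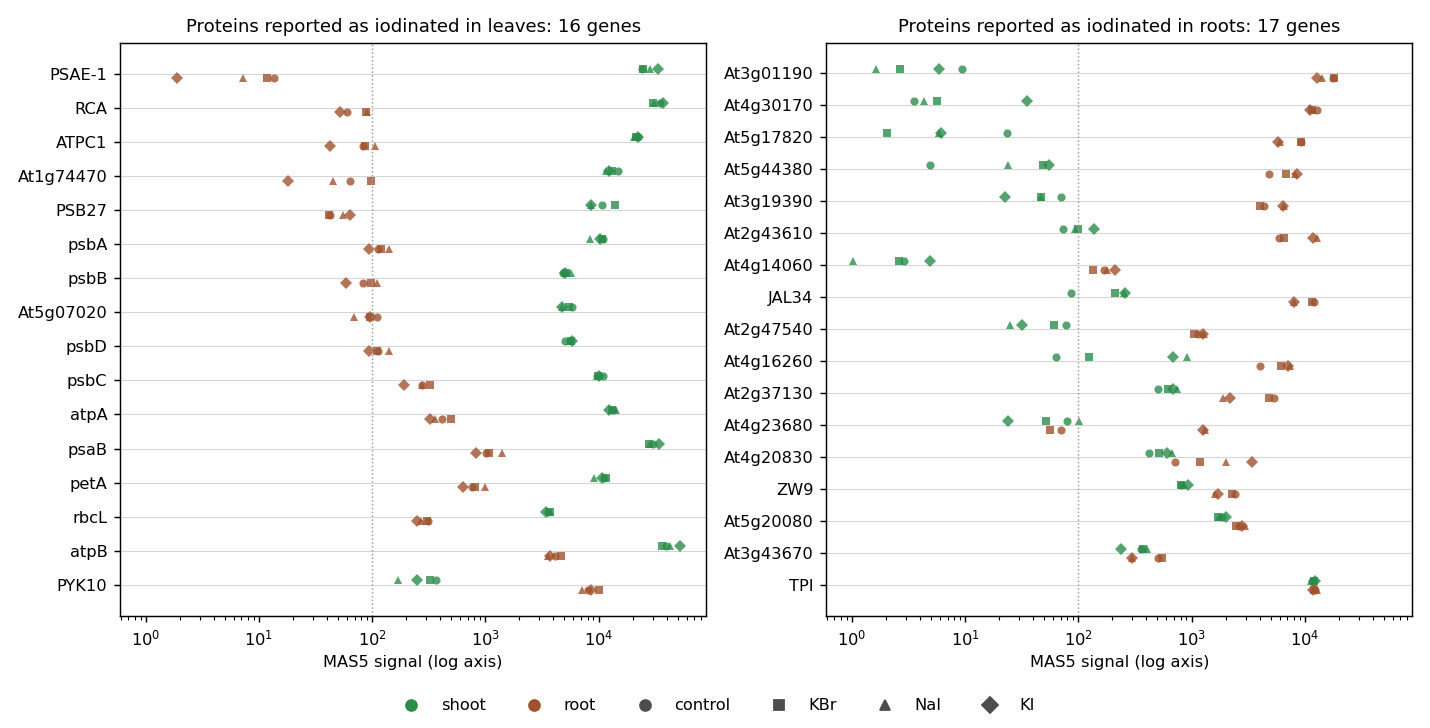
MAS5 signal (log axis) of the 16 measured leaf-table genes (left) and the 17 measured root-table genes (right), 1 row per gene and 1 point per array, green for shoot and brown for root, with the marker shape giving the treatment and the dotted line a signal of 100. In the left panel the shoot points lie to the right of the root points for every gene but PYK10, and in the right panel the root points lie to the right for most genes, while TPI, At3g43670 and At4g23680 overlap between organs.

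PSAE-1 encodes a photosystem I subunit on the stromal side of the complex. Its signals in shoot were 24201, 24637, 28220.2 and 33472 on the control, KBr, NaI and KI arrays, and in root they were 13.5, 11.9, 7.21 and 1.88. All root signals were far below 100, so the gene was at least 274-fold higher in shoot (limma adjusted p = 1.1e-06). The other measured photosystem I gene, psaB, which encodes a core protein of the reaction centre in the chloroplast genome, read 28164 to 34513 in shoot and 821 to 1391 in root (4.84 ± 0.17).

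Photosystem II was the role with the most genes, 5 of 11 measured, and all 5 were higher in shoot. psbA encodes D1, the reaction centre protein that is replaced often in the light, and its shoot signals were 11042, 10670.3, 8415 and 10385 against 112, 121, 142 and 93.7 in root. Its partner gene psbD, for D2, had 5011 to 5844 in shoot and 93.4 to 142 in root. The inner antenna genes showed the same order. psbC (CP43) read 11058, 9983, 9692 and 10156 in shoot and 278, 324, 276 and 193 in root, and psbB (CP47) read 4875, 5202, 5743 and 5026 in shoot and 82.6, 96.9, 111 and 58.4 in root. None of these organ groups overlapped, and the log2 differences were 6.44 ± 0.16 for psbA, 5.61 ± 0.14 for psbD and 5.28 ± 0.14 for psbC, while psbB was at least 52-fold higher in shoot (SE, limma adjusted p between 1.1e-07 and 1.4e-07). PSB27, a nuclear gene for a lumenal protein of photosystem II assembly and repair, read 8584 to 13880 in shoot and 41.4 to 63.8 in root, at least 102-fold higher in shoot. At5g07020, a proline-rich thylakoid protein, was the only gene of photosystem II upkeep measured of 5 and was at least 51.8-fold higher in shoot.

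All 3 ATP synthase genes of the leaf table were measured. The chloroplast genes for the alpha and beta subunits of its catalytic head were 33.6-fold (atpA) and 10.6-fold (atpB) higher in shoot. The nuclear gene for the gamma subunit, the central shaft, was at least 216-fold higher (ATPC1, with a mean of 21633 in shoot and 75.5 in root). atpB read 3605 to 4657 in root, a difference of 3.40 ± 0.16 (log2). In electron transfer only petA, for cytochrome f, was measured of 5 genes, and it was 13.5-fold higher in shoot.

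Of the 5 carbon fixation genes, 2 were measured. rbcL, for the large subunit of Rubisco, read 3607, 3736, 3748 and 3421 in shoot and 312, 303, 268 and 247 in root, without overlap, a difference of 12.9-fold (3.69 ± 0.10, SE, limma adjusted p = 1.8e-07). RCA, the nuclear gene for Rubisco activase, read 34909, 30287, 30943 and 36838 in shoot and 60.6, 88.6, 90.3 and 52.4 in root, at least 331-fold higher in shoot. At1g74470, which makes the phytyl side chain of chlorophyll as a geranylgeranyl reductase, was at least 129-fold higher in shoot. No member of the light-harvesting antenna, 5 genes in the table, had a probe set that the annotation linked to it.

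The 9 chloroplast-encoded genes, all measured, had organ differences from 3.40 to 6.44 (log2, psbB at its bound), median 5.07, and 8 of them had a mean of at least 100 in root. Of the 7 nuclear genes, 6 were higher in shoot, with bounds of at least 51.8-fold to at least 331-fold, and all 6 were under 100 in root. The array's labelling starts from poly(A) tails, which most chloroplast transcripts lack, and the part this plays in the signals was not tested. Of the other chloroplast-encoded photosynthesis genes, a list added after the member table was seen, 24 of 24 were measured and all 24 were called higher in shoot. Of 58 other nuclear genes of photosynthesis and the Calvin cycle, 12 were measured, with 11 called higher in shoot and 1 higher in root. The 11 include SBPASE and PRK, the leaf markers given above. Over all probe sets 15.4% were called higher in shoot and 19.1% higher in root.

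PYK10 went against its table. It encodes a beta-glucosidase that accumulates in endoplasmic reticulum bodies and was listed among the leaf proteins. Its signals were 364, 327, 168 and 249 in shoot and 8042, 10000.1, 7129 and 8544 in root. The organs did not overlap, and the root mean was 31.5-fold above the shoot mean (-4.98 ± 0.15, shoot minus root, SE, limma adjusted p = 2.8e-07).

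**Figure D2:**
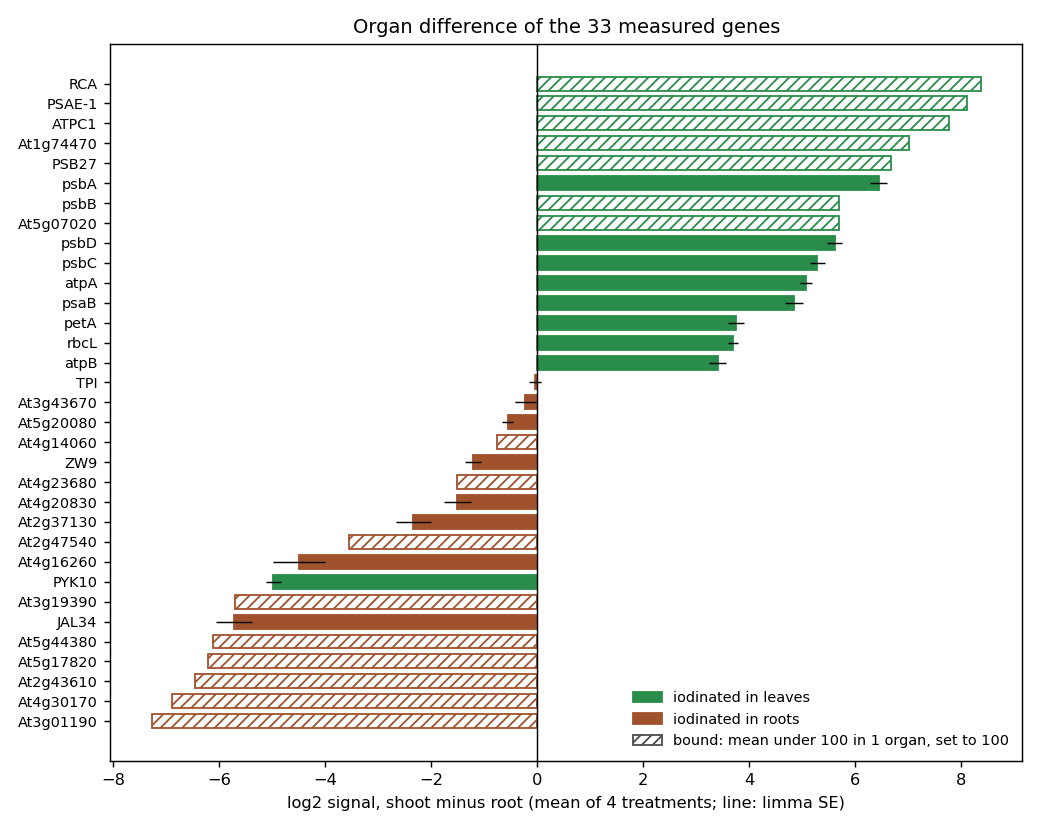
Organ difference (log2 signal, shoot minus root, mean over 4 treatments) of the 33 measured genes, green for leaf-table and brown for root-table genes, with the limma standard error as the black line. Hatched bars are bounds, with the mean of the organ under 100 set to 100, so their order says nothing of the true order, and PYK10 at -4.98 is the green bar on the root side.

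The transcripts of the root proteins were mostly brighter in root. Of the 17 measured genes, 13 were called higher in root, none was called higher in shoot and 4 were not called. Over all probe sets 19.1% were called higher in root and 15.4% higher in shoot. The median fitted difference of the 17 was -4.75 (log2 signal, shoot minus root), against -0.13 over all probe sets. With dim organs set at the floor it was -3.56, and 9 of the 17 had a mean under 100 in shoot. The 4 that were not called were TPI, At3g43670, At5g20080 and At4g23680.

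Of the 5 class III peroxidases 4 were measured, and all 4 were higher in root. At3g01190 read 17742, 18119, 14137 and 12901 in root (control, KBr, NaI, KI) and 9.31, 2.65, 1.64 and 5.89 in shoot. At4g30170 read 12916, 11511, 11915 and 11037 in root and 3.52, 5.68, 4.37 and 35.0 in shoot. At5g17820 read 9225, 9340.1, 6073 and 5819 in root and 23.3, 2.06, 5.82 and 6.07 in shoot. These 3 genes were thus near the floor of the array in shoot, with root means at least 156-fold, 118-fold and 74.3-fold higher, and limma adjusted p-values of 3.4e-07, 2.5e-06 and 2.2e-06.

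The remaining measured peroxidase, At2g37130, was different in shoot. It read 505, 615, 749 and 686 in shoot and 5316, 4806, 1880.3 and 2191 in root, so that the shoot signals were well above 100 and the lowest root signal was still above every shoot signal (-2.34 ± 0.33, SE, limma adjusted p = 0.00068). Among the other class III peroxidase genes of the genome, 51 of 68 had a probe set of their own, and 28 of these were called higher in root and 3 higher in shoot. Over all probe sets these shares were 19.1% and 15.4%.

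All 4 other genes for oxidases or oxidoreductases in the root table were measured, and they were split. At5g44380, a berberine bridge enzyme-like flavoprotein, read 4861 to 8527 in root and 4.92 to 55.1 in shoot, at least 69.4-fold higher in root. At4g20830, of the same family and an oxidase of pectin fragments (oligogalacturonides), was 2.84-fold higher in root (-1.51 ± 0.25, adjusted p = 0.0017). The copper amine oxidase At3g43670, of a family that releases hydrogen peroxide from amines, had a difference of -0.23 ± 0.20 (adjusted p = 0.39). The FAD/NAD(P)-binding oxidoreductase At5g20080 passed the adjusted p (0.0023) with a difference of -0.56 ± 0.10 that was under 2-fold.

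Of the 6 hydrolases and lectins, 4 were measured and all 4 were higher in root. At2g43610, a chitinase, had a root mean of 8790.0 and was at least 87.9-fold higher. The papain-type cysteine protease At3g19390 was at least 52-fold higher in root, the jacalin-related lectin JAL34 (At3g16460) 52.8-fold and the beta-1,3-glucanase At4g16260 22.4-fold. Chitinases and glucanases cleave polymers of fungal cell walls. Of 8 wall proteins only At2g47540, which has a pollen allergen domain of the Ole e 1 type, was measured, with 1045.0 to 1301 in root and 24.7 to 77.4 in shoot.

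Of 5 root-table genes of central carbon metabolism only TPI, the cytosolic triosephosphate isomerase of glycolysis, was measured. It read 11575, 12003, 11468 and 12386 in shoot and 12281, 12077, 12884 and 11746 in root. The organs overlapped, and the difference was -0.05 ± 0.11 (SE, limma adjusted p = 0.77). Of 15 other cytosolic glycolysis genes, 5 were measured, and 1, the pyruvate kinase gene At5g63680, was called higher in root while 4 were not called. Over all probe sets 19.1% were called higher in root. The TRAF-like gene ZW9 (At1g58270) was 2.32-fold higher in root and At4g14060, of the Bet v 1-like lipid-binding family, read 136 to 209 in root against 1.02 to 4.90 in shoot.

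The question of whether the iodide salts moved these transcripts was addressed with the NaI and KI arrays of an organ set against its control and KBr arrays. In this limma fit the error came from the differences between the members of each pair, pooled over both organs, so that an effect of bromide or of the cation counts as error and no array has a true replicate. In root, 2 of the 33 genes were called higher and 2 lower, where 2.93% and 1.38% of all probe sets were called. In shoot, 1 was called higher and 1 lower, against 0.62% and 0.317% of all probe sets. A fold rule after the study's, a log2 change of at least 2 in both iodide salts and not in KBr with a signal of 100 on the brighter array, but without the MAS5 detection p that the study also required, took 1 gene in each organ, both higher, where it took 1.49% of all probe sets as higher in root and 0.0747% in shoot. It took no gene as lower, with 0.378% and 0.0791% over all probe sets. At least 2-fold from control in both iodide salts, with 100 on the brighter array, were 3 members higher and 1 lower in root (3.69% and 2.13% of all probe sets) and 2 higher and none lower in shoot (0.822% and 0.532%). The iodide change differed between the organs, by the test of that difference, for 5 members (3.09% of all probe sets): At4g23680, At4g16260, At2g37130, At2g47540 and PSB27.

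**Figure D3:**
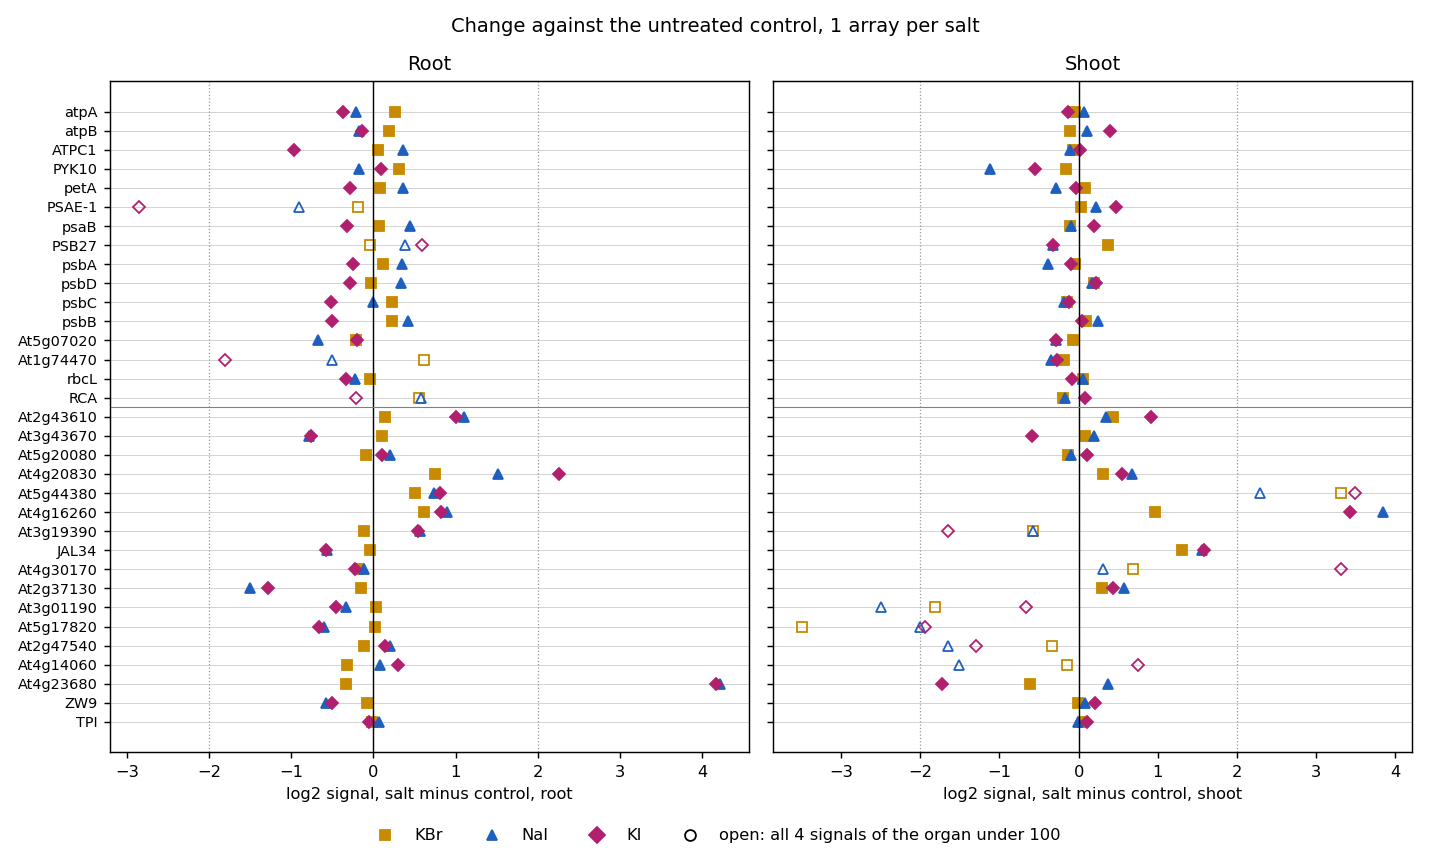
Change against the untreated control (log2 signal, salt minus control) of the 33 genes in root (left) and shoot (right), squares for KBr, triangles for NaI and diamonds for KI, leaf-table genes above the horizontal line and root-table genes below it. Open markers have all 4 signals of the organ under 100, and dotted lines mark the log2 change of 2. Among filled markers At4g23680 in root and At4g16260 in shoot lie beyond the dotted line in both iodide salts, and among open markers At5g44380 in shoot does so in KBr as well, with signals of 4.92 to 55.1.

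At4g23680, a Bet v 1-like gene of the lipid transport superfamily, rose in root. Its root signals read 70.3, 56.1, 1309 and 1266 (control, KBr, NaI, KI), and in shoot they were 79.0, 51.8, 102 and 23.8. Only the 2 root iodide arrays stood above about 100. The root change was at least 12.9-fold with the dim arrays set at the floor (fitted log2 change 4.36 ± 0.58, SE, limma adjusted p = 0.0018), and it was the only member taken by the fold rule in root. Without iodide the root and shoot signals lay together, with iodide root was higher, and the organ difference over the 4 treatments was not called (fitted value -2.34 ± 0.94, adjusted p = 0.077).

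At4g20830, the berberine-type oxidase, rose less and in a more graded way. Its root signals were 708, 1187, 2024 and 3396 in control, KBr, NaI and KI, and its shoot signals were 418, 520.0, 667 and 612. Both iodide arrays of root lay above the others, and the KBr array lay above the control by 1.68-fold. The root change was 2.86-fold (1.52 ± 0.28, SE, limma adjusted p = 0.0089). Without the root control array the adjusted p was 0.053 and without the root KI array 0.059. A further probe set that At4g20830 shares with another locus was not used for these values. The related gene At5g44380 read 4861, 6893, 8124 and 8527 in root, where KBr also lay above control, and was not called (0.52 ± 0.84, adjusted p = 0.84).

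At2g37130 was the peroxidase that fell. The root values given above dropped from 5316 and 4806 without iodide to 1880.3 and 2191 with it, a 2.49-fold lower level (-1.32 ± 0.13, SE, limma adjusted p = 0.0003). In shoot, where the gene was dimmer, the change was 0.36 ± 0.13 (adjusted p = 0.19) and both iodide arrays lay above the others. The root call was kept in every alternative tried, with adjusted p-values up to 0.026.

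The other 3 peroxidases were not called for iodide in root. At5g17820 lay lower on both iodide arrays than on the others (-0.64 ± 0.83, adjusted p = 0.79), as did At3g01190 (-0.41 ± 0.63, adjusted p = 0.83), while for At4g30170 the groups overlapped (-0.09 ± 0.73, adjusted p = 0.98). The fit pooled the spread of both organs, and in shoot all signals of these 3 genes were under 100. With root fitted by itself the SE of At5g17820 was 0.11 and its adjusted p 0.0095, and that of At3g01190 was 0.14 with an adjusted p of 0.11, both under 2-fold. The root hair marker EXPA7, the only root marker measured, was also lower on both iodide arrays of root, with signals of 1917, 1731, 582 and 635 (-1.58 ± 0.81, adjusted p = 0.34, or 0.00016 with root fitted by itself), and its part in the peroxidase values was not tested. Of the 51 other class III peroxidases measured, 10 were called higher with iodide in root and 1 lower, and none was called in shoot. Over all probe sets 2.93% were called higher and 1.38% lower in root, and 0.62% higher and 0.317% lower in shoot.

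Among the hydrolases and lectins no gene was called in root. The chitinase At2g43610 read 5955, 6571, 12802 and 11917, at least 2-fold above control in both iodide salts, and its change against control and KBr together was 0.98 ± 0.20 (adjusted p = 0.015), just under the 2-fold limit of a call. The lectin JAL34 read 11978, 11660 (KBr), 8108 and 7998 in root, below the others on both iodide arrays, and was not called (-0.55 ± 0.32, adjusted p = 0.41). With root fitted by itself the JAL34 SE was 0.12 and its adjusted p 0.022. The cysteine protease At3g19390 read 4379, 4029, 6518 and 6364 and was not called (0.62 ± 0.31, adjusted p = 0.33), with an adjusted p of 0.01 in root by itself.

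At4g16260, the beta-1,3-glucanase, was the gene that rose in shoot. Its shoot signals were 63.8, 125, 918 and 690.0, and its root signals were 3989, 6108, 7405 and 7046. In shoot both iodide arrays lay far above the others, at least 7.96-fold with the dim group at the floor (fitted log2 change 3.16 ± 0.30, SE, limma adjusted p = 0.0029), and still below every root array. In root the iodide arrays were also above the others, by 0.55 ± 0.30, which was not called (adjusted p = 0.38). JAL34 in shoot read 85.4, 211, 251 and 257, more than 2-fold above control in both iodide salts and in KBr alike, and was not called (0.92 ± 0.32, adjusted p = 0.17). Among members with a signal of 100 on the brighter array it was the only one at least 2-fold from control in KBr in either organ, where 0.295% of all probe sets were higher and 0.84% lower in shoot, and 0.255% and 0.33% in root. At2g47540 was called lower in shoot (77.4, 61.4, 24.7 and 31.6, fitted value -1.30 ± 0.22, adjusted p = 0.023) with all 4 signals under 100, and the adjusted p was 0.42 with shoot fitted by itself.

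**Figure D4:**
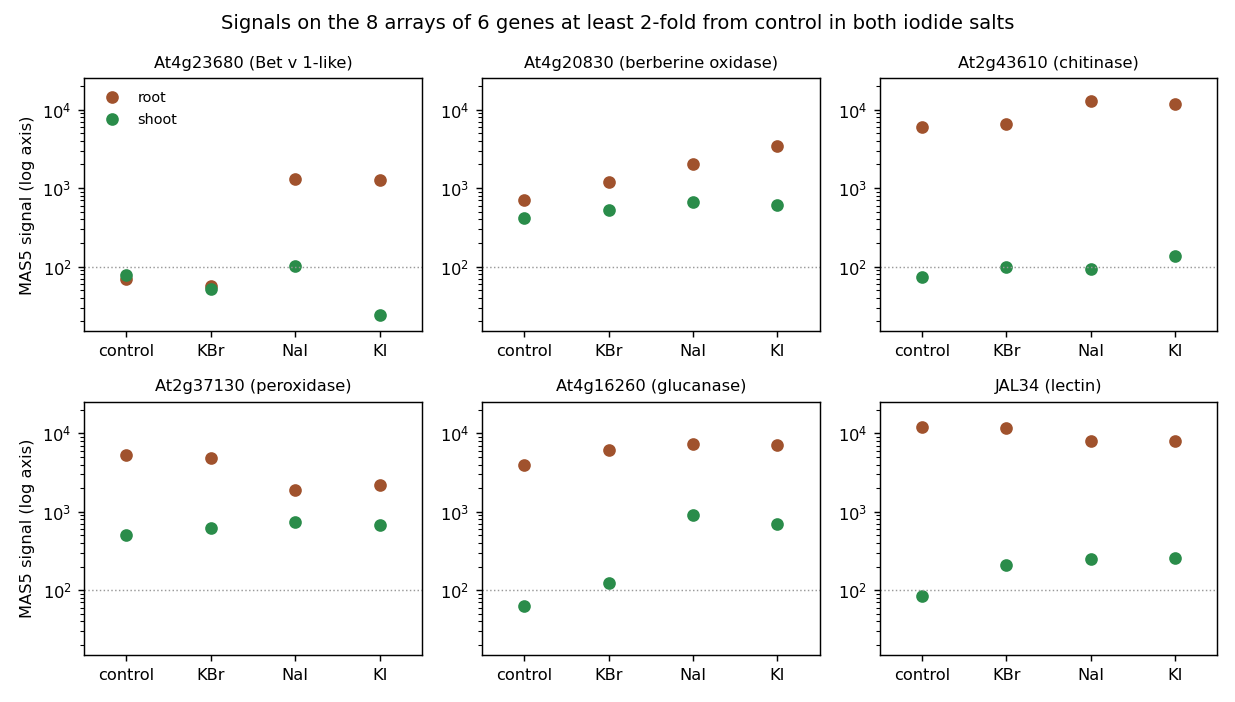
MAS5 signal (log axis) on the 8 arrays of the 6 genes that were at least 2-fold from control in the same direction in NaI and KI in root or in shoot and reached 100 on the brighter array, brown for root and green for shoot, with 1 point per array and the dotted line at 100. At4g23680 stands out in root under both iodide salts, At2g37130 is lower there, and At4g16260 is higher in shoot under both.

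Of the remaining root-table genes, ZW9 read 2419, 2281, 1619 and 1705 in root and passed the adjusted p (0.014) with a change of -0.50 ± 0.10 that was under 2-fold. The amine oxidase At3g43670 read 505, 544, 295 and 297 in root, below the others in both iodide salts (-0.82 ± 0.23, adjusted p = 0.063, or 0.0068 with root fitted by itself). TPI changed by 0.01 ± 0.11 in root and 0.02 ± 0.11 in shoot. Over the 17 root-table genes the median iodide change in root was 0.20 (log2), against -0.04 over all probe sets. The GAPDH ratio also differed between iodide and other arrays, lower in root and higher in shoot, and its part in the iodide changes of either organ was not tested.

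The leaf-table genes showed small changes with the salts in shoot. None of the 16 was called in either direction, or taken as 2-fold from control in both iodide salts. At any fold none passed an adjusted p of 0.05, where 2.52% of all probe sets did. The lowest limma adjusted p-values were 0.073 (PYK10), 0.11 (PSB27) and 0.26 (atpB). The median iodide change in shoot was -0.03 (log2), against 0.03 over all probe sets, and the changes ran from -0.76 for PYK10 to 0.33 for PSAE-1. rbcL and psbA changed by -0.04 ± 0.10 and -0.22 ± 0.19. The SD of log2 signal over the 4 shoot arrays, treatments included, had a median of 0.10 for the 9 chloroplast-encoded genes and 0.15 for all 16, and for the 3375 probe sets with a mean shoot signal of at least 1000 it was 0.16. PYK10 had the highest SD of the 16, at 0.50, with both iodide arrays below the others (-0.76 ± 0.19, adjusted p = 0.073).

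In root, 1 leaf-table gene was called. At1g74470 read 64.1, 98.4, 45.5 and 18.2, called lower (fitted value -1.46 ± 0.36, adjusted p = 0.036), but all 4 signals were under 100, and without the root KBr array the adjusted p was 0.20 and without the root KI array 0.097. PSAE-1 in root, with all 4 signals under 100, had a fitted value of -1.78 ± 0.47 (adjusted p = 0.052). PYK10 changed by -0.20 ± 0.19 in root and atpB by -0.26 ± 0.13, neither of them called.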

How the data were processed

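The authors hybridised RNA of 8 pools to ATH1 arrays and computed MAS5 signals; what they deposited is the signal itself, a linear intensity scaled to a 2% trimmed mean of about 500 per array. MAS5 settings and a genome build were not found in the sources, so no coordinates are shown. Each treatment and organ had 1 array, which limits the precision. Samples were grouped by their labels.

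The members and gene lists were chosen with earlier results of these data known. Genes were matched by AGI code through the platform annotation and RefSeq gene names (assembly TAIR10.1). Of 22810 probe sets, 13513 named 1 gene, 503 several and 8794 none, and 64 controls were left out. Values on every array are given for members called for iodide, members 2-fold from control in both iodide salts, members against the organ of their table, the peroxidases and members seen in 3 or more proteome data sets, and others (such as PSAE-1 and TPI) were added after their values were seen. No protein sequences were used here.

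Log2 signals, with no pseudocount or filter, were fitted in limma 3.58.1 (R 4.3.3, eBayes with a trend) with Benjamini-Hochberg adjustment over 22746 probe sets. The organ fit had treatment as a block. The iodide fit had 4 means, organ by iodide, with control and KBr as one state and NaI and KI as the other. P-values measure only the spread between these arrays, since none is replicated. The fold of a gene with a mean under 100 in 1 group is a bound against a signal of 100. The fits were tried on simulated data. Iodide changes were planted there only in root and only in probe sets bright in both organs. For iodide the trial thus did not cover genes dim in 1 organ. Alternatives covered normalization, an offset, low signals, moderation, block, organ, each array left out and the fold rule. Python 3.11.15 with numpy 2.4.6, pandas 2.3.3 and matplotlib 3.10.9 was used.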

Additional observations from a re-analysis of the deposited data

Results flagged for a closer look

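For 5 members the iodide change differed between root and shoot by the limma test of that difference (adjusted p under 0.05 and at least 2-fold), where 3.09% of all probe sets were called. Values are the log2 change in root minus that in shoot, fitted to the signals as they are, also where these were under 100.

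At4g23680, the Bet v 1-like gene, differed by 4.73 ± 0.82 (SE, adjusted p = 0.015), with 1309 and 1266 on the root iodide arrays against 102 and 23.8 on those of shoot. The glucanase At4g16260 differed by -2.61 ± 0.42 (adjusted p = 0.012), rising from 63.8 and 125 to 918 and 690.0 in shoot and reading 3989 to 7405 in root. The peroxidase At2g37130 differed by -1.68 ± 0.18 (adjusted p = 0.0016), with iodide arrays below the others in root and above them in shoot.

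At2g47540, the Ole e 1-like wall protein gene, differed by 1.53 ± 0.31 (adjusted p = 0.027), with all shoot signals under 100. PSB27 differed by 1.01 ± 0.20 (adjusted p = 0.026), with shoot signals of 10719, 13880, 8607 and 8584 and root signals of 42.5, 41.4, 55.5 and 63.8, all under 100, and it was called for iodide in neither organ by itself.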

How the results depend on the processing

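The organ counts kept their values or moved by 1 under all alternatives: 15 leaf-table genes were higher in shoot throughout, and 13 to 14 root-table genes were higher in root with 1 treatment left out in turn (At4g23680 was called at -3.18, adjusted p = 0.034, without control). Under log2(signal + 50) the median organ differences were 5.15 for the leaf table and -3.67 for the root table. The iodide calls rest on few genes and moved more. With eBayes without a trend, 1 gene was higher (At4g20830 had an adjusted p of 0.11) and 1 lower in root, 0 higher and 0 lower in shoot (At4g16260 had an adjusted p of 0.097) and 0 differed between organs. In root 1 was lower under log2(signal + 50), robust moderation and root fitted by itself, in each case because At1g74470 was no longer called. In shoot 0 were lower under log2(signal + 50) and with shoot fitted by itself, and 3 differed between organs under log2(signal + 50). At2g43610 was called in root after quantile normalization (1.21, adjusted p = 0.0071) and median scaling (adjusted p = 0.013), and PSAE-1 after quantile normalization (-1.67, adjusted p = 0.027) and with a mean signal of at least 100 (-1.78, adjusted p = 0.045). That mean was taken over all 8 arrays, so PSAE-1 was kept through its shoot signals, while its root signals were 1.88 to 13.5. Median scaling gave median iodide changes of -0.13 for the leaf table in shoot and 0.22 for the root table in root.

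With each array left out in turn, between 1 and 2 members were higher and between 1 and 3 lower in root, between 1 and 3 were higher and between 0 and 2 lower in shoot, and between 3 and 6 differed between organs. PSAE-1 was called lower in root without NaI (-2.76). In shoot, At2g47540 lost its call without control (adjusted p = 0.097), and calls appeared for JAL34 (1.57) and At5g44380 (2.89) without KBr, PYK10 without KI (-1.04), and At3g19390 (-1.36) and At4g30170 (2.97) without NaI. At5g17820 in shoot, with signals of 2.06 to 23.3, was called lower without KBr (-1.97) and higher without control (1.53). The fold rule took 3 higher and 1 lower in root at a log2 ratio of 1, and 0 higher in root and 0 in shoot when both arrays had to reach 100. The organ fit was paired by treatment, and without that block the counts were again 15 and 13. No paired analysis by replicate number was possible because the labels carry none. The single arrays and signals under 100 limit what can be resolved.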

Other observations

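Among the 16 measured leaf-table genes, 12 had their lowest root signal on the KI array, including 8 of the 9 encoded in the chloroplast, while 27.1% of all probe sets were lowest there. Of the 12, psbB and the nuclear genes ATPC1, PSAE-1, At1g74470 and RCA had root means of 6.83 to 84.8. These lay under the floor of 100, where a rank carries little. For psbC the KI signal in root was 193 against 276 to 324 on the other root arrays, for atpA 323 against 362 to 501 and for petA 632 against 770.0 to 985. Among other genes, 5 of 24 chloroplast-encoded photosynthesis genes and 7 of 12 nuclear photosynthesis genes were lowest there. The pattern was noticed in the data and was not tested, and the NaI array did not share it, being lowest for 3 of the 16.

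With the root arrays fitted by themselves, 9 of the 17 root-table genes passed an adjusted p of 0.05 for iodide at any fold, where 12.2% of all probe sets did, against 5 with both organs in 1 fit, where 8.09% did. These shares are not of probe sets alike in brightness. All 17 had a mean root signal of at least 100 and 14 of at least 1000, against 61.3% and 15.1% of all probe sets. The part of brightness in the count was not tested. Of the 16 leaf-table genes 0 passed in root by itself and 1 in the fit of both organs. The 9 ran in both directions: At4g23680, At4g20830, At2g43610 and At3g19390 were higher on the iodide arrays and At2g37130, At3g43670, At5g17820, JAL34 and ZW9 were lower.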
